A study of Mus musculus with 6 samples.

Results

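Cholesterol synthesis and its control by SREBP2 (sterol regulatory element-binding protein 2) were followed through 27 genes, taken by gene name from a table of 21047 genes and kept whatever their level or change. The members are 20 enzymes, 5 proteins that hold back, escort or cleave SREBP, and 2 genes of cholesterol transfer and ester storage. The enzymes lead from acetyl-CoA to cholesterol or branch from that route, except that mitochondrial Acat1 acts mainly in ketone body and isoleucine breakdown. All 27 passed the filter on low values, a mean of at least 1 normalized read, and were tested. RNA was sequenced from iBMDM, a line of immortalised mouse macrophages derived from bone marrow, in 3 libraries of wild-type cells (WT) and 3 of a line made to lack A20 (A20KO), the Tnfaip3 product, which damps NF-kB signalling. The labels name no treatment for either group. They do not say how A20 was disrupted, whether the A20KO cells are a single clone, or whether a genotype was cultured separately for each library, so the p-values cover only the spread between these libraries, which may be technical.

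The libraries held 13308840 to 15130697 reads in genes, and libraries of the same genotype correlated more closely (Pearson r across genes 0.9808 to 0.982) than libraries of different genotypes (0.9588 to 0.9606). Tnfaip3 itself fell but stayed detectable, at 382 to 437 normalized reads in the WT libraries and 189 to 196 in the A20KO ones (log2 fold change -1.06, limma, SE 0.101, adjusted p = 7.1e-14). All 9 macrophage markers examined were in the table, and their summed level was 27275 to 27886 in WT and 24462 to 24883 in A20KO. Single macrophage markers differed in both directions. Csf1r had 2380.1 to 2634 normalized reads in WT and 5263 to 5410.4 in A20KO, Fcgr1 98.6 to 113 and 592 to 649.8, and Mertk none and 4.89 to 16.6. Lyz2 had 9317 to 9442 and 6208 to 6373, Cd14 4307 to 4351 and 2439 to 2485, and Itgam 729 to 808 and 437 to 456. Ptprc, at 4104 to 4464 and 3366 to 3703, and Cd68, at 3586 to 3821 and 3236 to 3461, were also lower in A20KO. Adgre1 overlapped, at 2564 to 2596 and 2577 to 2608. The part of these differences in the results on sterol genes was not tested. Markers of T cells and epithelial cells were not in the table, and those found for fibroblasts, B cells, endothelial cells and mast cells summed, for each cell type, to at most 8.78 normalized reads per library. The neutrophil and progenitor markers summed to 102 to 138 in WT and 35.2 to 53.6 in A20KO, almost all from S100a8, and the 2 dendritic cell markers to 30.4 to 40 and 69.3 to 79.2, almost all from Zbtb46.

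Cells make cholesterol by condensing acetyl-CoA to HMG-CoA, reducing it to mevalonate, building isoprenoid units and joining them to squalene, which is closed to lanosterol and trimmed to cholesterol. SREBP2 is held in the endoplasmic reticulum by Scap and the Insig proteins when sterols are plentiful. When they fall, Scap carries it to the Golgi, where the proteases encoded by Mbtps1 and Mbtps2 release the part that enters the nucleus and raises most enzymes of the route together. In macrophages the balance of synthesis, uptake, ester storage and efflux decides whether cells load with cholesterol.

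Promoter sequences are shown for 4 enzymes, because one carries the classical sterol regulatory element and the others stand for enzymes of one route that differed in opposite directions between the genotypes. Hmgcs1 lies on the plus strand at chr13:119690101-119690350, Lss on the plus strand at chr10:76531355-76531604, Cyp51 on the minus strand at chr5:4104698-4104947 and Sc5d on the minus strand at chr9:42264301-42264550. Each line gives the 250 bases before the gene start in RefSeq (GRCm38.p6), and capitals mark the sterol regulatory element (searched as TCACNCCAC), the CCAAT box (CCAAT), the GC box (GGGCGG) and the E-box (CACGTG), each on both strands. Hmgcs1 and Lss were lower and Cyp51 and Sc5d higher in A20KO.
Hmgcs1: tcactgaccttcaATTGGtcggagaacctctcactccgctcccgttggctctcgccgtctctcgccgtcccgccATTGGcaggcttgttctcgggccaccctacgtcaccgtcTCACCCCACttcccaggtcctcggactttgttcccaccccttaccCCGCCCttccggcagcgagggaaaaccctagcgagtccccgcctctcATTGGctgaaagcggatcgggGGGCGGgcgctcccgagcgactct
Lss: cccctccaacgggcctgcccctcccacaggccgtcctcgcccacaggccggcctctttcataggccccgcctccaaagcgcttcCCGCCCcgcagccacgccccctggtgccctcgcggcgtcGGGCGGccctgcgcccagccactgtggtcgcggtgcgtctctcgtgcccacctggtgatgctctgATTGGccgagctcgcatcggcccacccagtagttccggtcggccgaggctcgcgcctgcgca
Cyp51: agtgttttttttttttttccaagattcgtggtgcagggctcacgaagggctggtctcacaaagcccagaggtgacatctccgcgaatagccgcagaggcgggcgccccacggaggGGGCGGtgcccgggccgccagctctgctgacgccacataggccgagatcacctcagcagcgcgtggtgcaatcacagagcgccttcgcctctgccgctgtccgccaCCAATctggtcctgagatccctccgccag
Sc5d: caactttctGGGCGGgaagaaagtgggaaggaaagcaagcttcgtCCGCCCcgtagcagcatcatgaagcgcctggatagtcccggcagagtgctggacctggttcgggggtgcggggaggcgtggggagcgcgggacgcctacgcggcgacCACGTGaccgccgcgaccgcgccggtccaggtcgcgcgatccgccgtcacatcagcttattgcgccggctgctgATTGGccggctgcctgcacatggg

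RefSeq windows of 250 bases before to 50 after the start were found for 23 of the members (29 windows, since some genes have several starts). Promoters of Acat1, Fdft1, Fdps and Stard4 are not shown. The sterol regulatory element in this spelling was found in 1 of the 29 windows, that of Hmgcs1, where it begins 137 bases before the start, and in 1.24% of all 32851 windows. Apart from a search without its first letter, other spellings were not searched. A window without this spelling, such as those of Lss, Cyp51 and Sc5d, may therefore still hold such an element. The CCAAT box was in 19 of the 29 windows (65.5%), against 37.4% of all windows and 37.9% of the windows of genes whose mean level lay within the range of the members. For the GC box the figures were 79.3%, 35.7% and 64.3%, and for the E-box 20.7%, 7.15% and 10.6%. Enzymes that fell and enzymes that rose both had CCAAT and GC boxes, as the sequences of Lss and Cyp51 show. A letter match describes the sequence and does not show that a factor binds there.

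The route as a whole did not move one way. Up to lanosterol most of the member enzymes were lower in A20KO. These were all 3 of mevalonate entry (Acat1 included), 4 of the 6 from mevalonate to isoprenoids and both of squalene and ring closure. The 4 include Ggps1, which leaves the sterol route. The counts cover only members, so not Sqle, an enzyme of this part that is described below. After lanosterol the member enzymes were split, with 2 higher, 2 lower and 2 not past the threshold in demethylation, and 2 higher and 1 lower in the last sterol steps. Of the 27 members 13 fell and 7 rose past an adjusted p of 0.05 (limma across all genes tested, Benjamini-Hochberg adjustment), and 7 did not pass. Of all genes tested 19.6% were lower and 20.3% higher. The members past the threshold make up 74.1%, beside 39.8% of all 17376 genes tested. The members are well expressed, and among the 9401 genes whose mean level lay in their range (61.1 to 4109 normalized reads) 56.0% passed, 27% higher and 29.0% lower. In 20 members (74.1%) all A20KO libraries lay on one side of all WT libraries, without overlap (against 46.9% of all genes tested). For this count the share among genes at the levels of the members was not computed.

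The differences were small. No member changed by 2-fold. Of genes in the same range of levels 6.25% did and passed, a share too low for none among 27 members to set them apart. The median size of the log2 fold change, whichever its sign, was 0.28 in the members, 0.22 in the genes of that range and 0.32 in all genes tested. With its sign, the median was -0.15 over the members and 0.01 over all genes. A log2 fold change is the A20KO minus the WT mean of log2(normalized reads + 1), given with its standard error (SE), and understates changes of low genes. In bulk RNA, a change in the share of cells that express a gene and a change per cell cannot be told apart.

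**Figure D1:**
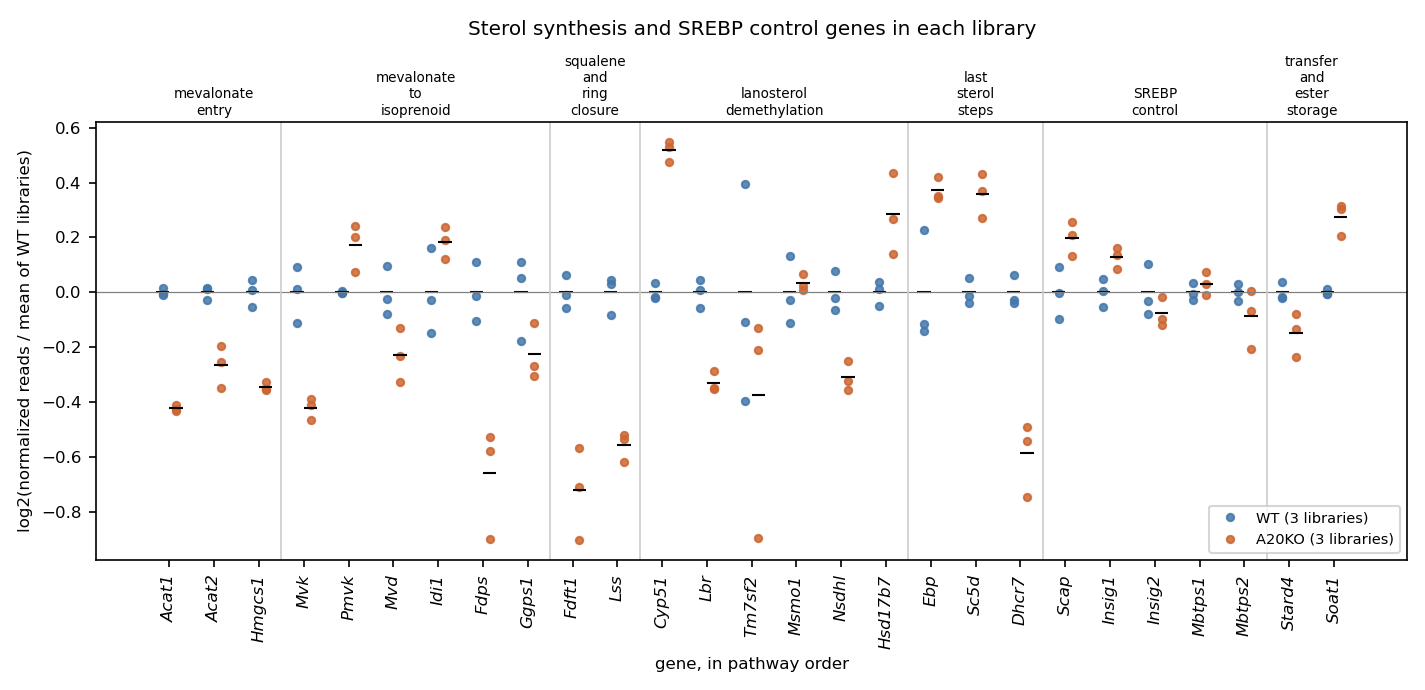
Each point is 1 library, as the log2 ratio of its normalized reads to the mean of the 3 WT libraries (vertical axis), for the 27 genes in pathway order (horizontal axis), with black bars at the genotype means. A20KO points lie below all WT points at Fdft1, Lss and Dhcr7, and above all of them at Cyp51, Sc5d and Ebp.

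The 3 genes of mevalonate entry were all lower in A20KO. Hmgcs1 encodes the cytosolic synthase that makes HMG-CoA and is a standard SREBP2 target. It had 1843, 1798 and 1722 normalized reads in WT, and 1398, 1426 and 1400.4 in A20KO. Every A20KO library lay below every WT library, and the log2 fold change was -0.34 (limma, SE 0.0498, adjusted p = 3.2e-08). Of its exonic bases 12.1% lie under exons of Gm48342 on the opposite strand. Acat1, the mitochondrial acetoacetyl-CoA thiolase, which acts mainly in ketone body and isoleucine breakdown, had 1786, 1756 and 1761 in WT and 1329.8, 1309.7 and 1317 in A20KO. These were the most tightly grouped A20KO libraries of all members, with a coefficient of variation of 0.769%, and Acat1 fell by 0.42 on the log2 scale (limma, SE 0.0498, adjusted p = 9.1e-11). Acat2, the cytosolic thiolase that feeds Hmgcs1, had 1116, 1082 and 1115 in WT and 867, 926 and 964 in A20KO. It fell by 0.27 (limma, SE 0.0588, adjusted p = 1.4e-04), again without overlap. Of the 31-base words of its transcripts 43.7% also occur in other genes, mainly Acat3, so the split of reads between them is uncertain; Acat3 stood at 12.7 ± 3.98 normalized reads in WT against 12.7 ± 0.994 in A20KO (SD, n = 3).

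Between mevalonate and the isoprenoids, 4 of 6 genes fell, 1 rose and 1 did not pass. Mvk, mevalonate kinase, had 327, 346 and 299.9 normalized reads in WT and 248, 235 and 244 in A20KO. The genotypes did not overlap, and it fell by 0.42 on the log2 scale (limma, SE 0.101, adjusted p = 4.8e-04). Pmvk, the kinase that follows, did not pass. It had 297, 297 and 299 in WT and 352, 313 and 342 in A20KO. Its genotypes did not overlap, and its log2 fold change was 0.17 (95% confidence interval -0.02 to 0.36, adjusted p = 0.16). Mvd, which decarboxylates the product to isopentenyl diphosphate, had 805, 835 and 908 in WT and 723, 777 and 677 in A20KO. It fell by 0.23 (limma, SE 0.0665, adjusted p = 0.0039), with the A20KO libraries all below the WT ones, and the call ended without the variance trend (adjusted p = 0.11).

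Idi1, the isomerase that balances the pair of isoprene units, had 872, 764 and 703 normalized reads in WT and 848, 919 and 889.8 in A20KO. WT replicate 1 lay inside the A20KO range. The log2 fold change was 0.19 (limma, SE 0.0669, adjusted p = 0.019), and the call was lost without WT replicate 2 (0.069) or 3 (0.2, with a log2 fold change of 0.12), when A20KO replicate 2 was dropped (0.1), under DESeq2 (0.087) and with no variance trend (0.23). Idi1 shares 18.8% of its words with other genes, mainly Gm13502.

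Fdps, which makes farnesyl diphosphate, had 146, 134 and 126 normalized reads in WT and 90.7, 93.9 and 72.5 in A20KO. Its A20KO values were all lower, with a log2 fold change of -0.66 (limma, SE 0.16, adjusted p = 5.0e-04). Its count is uncertain, because 27.9% of its words occur in other genes. Most are in Gm43738, not analysed here, and Gm3571, which shares many, held more reads than Fdps itself: 321, 300.3 and 299.9 in WT and 284, 299 and 238 in A20KO. Summed with Gm3571 and Gm5873, another gene that shares its words, the level was 512 ± 16.5 in WT and 424 ± 46.2 in A20KO (SD, n = 3), a ratio of 0.83 in place of 0.63 for Fdps alone. Ggps1, which extends farnesyl to geranylgeranyl diphosphate for protein prenylation and so leaves the sterol route, had 469, 449.9 and 384 in WT and 361, 352 and 402 in A20KO. The genotypes overlapped at WT replicate 3 and A20KO replicate 3. The log2 fold change of -0.22 (limma, SE 0.0889, adjusted p = 0.041) was the member nearest to the threshold from inside. It ended under 10 alternatives, among them without WT replicate 1 (0.21) or 2 (0.15), without A20KO replicate 1 (0.12) or 2 (0.16), with DESeq2 (0.12) and with the replicate number as a block (0.053).

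**Figure D2:**
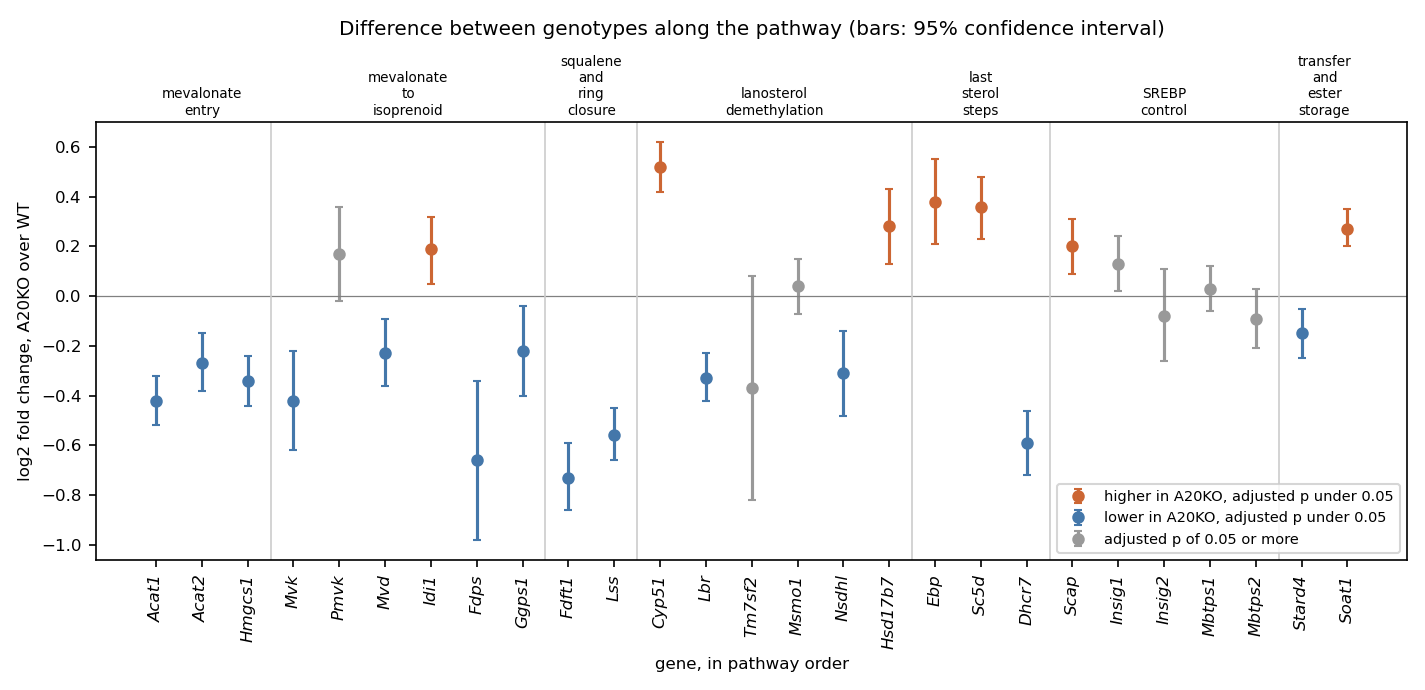
Points are log2 fold changes, A20KO over WT (vertical axis), with 95% confidence intervals, for the 27 genes in pathway order (horizontal axis), coloured by whether they passed an adjusted p of 0.05. The genes from Acat1 to Lss lie mostly below 0, with Fdft1 lowest at -0.73, and those from Cyp51 to Dhcr7 lie on both sides, with Cyp51 highest at 0.52.

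Both genes of squalene synthesis and ring closure fell, and Fdft1 fell most of all members. It encodes squalene synthase, which commits farnesyl diphosphate to sterols. It had 1108, 1053 and 1018 normalized reads in WT and 715, 648 and 567 in A20KO. The lowest WT library was well above the highest A20KO library, and the log2 fold change was -0.73 (limma, SE 0.0678, adjusted p = 6.4e-14). Of its exonic bases 18.3% lie under exons of Ctsb on the opposite strand, and without a stated use of strand reads there cannot be assigned. Ctsb, a cathepsin gene, stood at 32500.2 ± 189 normalized reads in WT against 28252 ± 265 in A20KO (SD, n = 3), a ratio of 0.87 beside 0.60 for Fdft1, and its part in the Fdft1 count was not tested. Lss, which closes the sterol ring to give lanosterol, had 1649, 1525 and 1666 in WT and 1052, 1113 and 1126 in A20KO. It fell by 0.56 on the log2 scale (limma, SE 0.0537, adjusted p = 9.4e-14), without overlap, and only 0.6% of its words occur elsewhere.

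Cyp51, the first enzyme after lanosterol, was higher in A20KO. It encodes the lanosterol demethylase, the target of azole drugs in fungi. It had 1297, 1247 and 1252 normalized reads in WT and 1825, 1759 and 1850.1 in A20KO. Every A20KO library exceeded every WT library, and Cyp51 rose by 0.52 on the log2 scale (limma, SE 0.0504, adjusted p = 1.3e-13). Within each library, the level of Cyp51 per length relative to that of Lss, the step before it, was 1.92, 2.0 and 1.84 in WT and 4.24, 3.86 and 4.01 in A20KO. The ratio was therefore higher in every A20KO library; this pair was chosen after the values were seen, so no test is given.

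The sterol reductase step after Cyp51 can be carried out by the products of Lbr and Tm7sf2. Lbr, which also anchors chromatin as the lamin B receptor, had 2137, 2046 and 2196 normalized reads in WT and 1665, 1742 and 1669 in A20KO. It fell by 0.33 (limma, SE 0.0474, adjusted p = 2.8e-08), without overlap, and 9.2% of its exonic bases lie under opposite-strand exons, mainly of Dnah14. Tm7sf2 was the least expressed member, at 52.4, 90.6 and 64.0 in WT and 37.1, 59.7 and 63.0 in A20KO. The genotypes overlapped, and its interval was wide: -0.37, from -0.82 to 0.08 (adjusted p = 0.2). The value was -0.13 without A20KO replicate 1, -0.16 without WT replicate 2 and -0.54 without WT replicate 1. Per length, Lbr stood at 447 ± 15.8 normalized reads per kilobase in WT and Tm7sf2 at 12.3 ± 3.5, so the RNA of the pair in these cells was largely Lbr. In A20KO the levels were 355 ± 9.06 and 9.52 ± 2.52 (SD, n = 3). Tm7sf2 shares exons and 12.9% of its words with other genes, mainly its neighbour Vps51.

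The enzymes that remove the remaining methyl groups on the sterol ring were split. Msmo1, the oxidase of this complex, had 1501, 1343 and 1267 normalized reads in WT and 1435, 1377 and 1394 in A20KO. All A20KO values lay inside the WT range, with a log2 fold change of 0.04 (95% confidence interval -0.07 to 0.15, adjusted p = 0.66), so a change as large as that of Cyp51 or Lss lies outside the interval. Nsdhl, the dehydrogenase of the complex, had 485, 439 and 453 in WT and 367, 386 and 359 in A20KO. It fell by 0.31 (limma, SE 0.0846, adjusted p = 0.0021), without overlap. Hsd17b7, the ketoreductase that follows, had 509.6, 500.4 and 479 in WT and 547, 598 and 670.3 in A20KO. It rose by 0.28 (limma, SE 0.0772, adjusted p = 0.0021), without overlap. Without A20KO replicate 3, the highest library, the value was 0.20 and the call ended (adjusted p = 0.053), as it did without the variance trend (0.084).

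In the last steps 2 genes rose and 1 fell. Ebp, the sterol isomerase that also binds emopamil, had 363, 357 and 460.4 normalized reads in WT and 499.5, 526 and 502 in A20KO. WT replicate 3 stood above the other WT libraries but below all A20KO libraries. Ebp rose by 0.38 on the log2 scale (limma, SE 0.0864, adjusted p = 2.1e-04), a call that ended without the variance trend (0.071). Sc5d, the desaturase that follows, had 743, 709 and 697 in WT and 965, 926 and 864 in A20KO. It rose by 0.36 (limma, SE 0.0641, adjusted p = 4.2e-06), without overlap. Dhcr7 encodes the reductase whose loss causes Smith-Lemli-Opitz syndrome in humans, in which its sterol substrate builds up. It had 1123, 1203 and 1131 in WT and 792, 821 and 688 in A20KO. It fell by 0.59 (limma, SE 0.0629, adjusted p = 3.2e-12), with all A20KO libraries lower. The level of Sc5d per length relative to that of Dhcr7, another pair chosen after the values were seen, was 0.79, 0.70 and 0.74 in WT and 1.46, 1.35 and 1.5 in A20KO.

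The genes that control SREBP moved little. Scap, the sterol-sensing escort, was the only one of the 5 to pass. It had 1231, 1315 and 1404 normalized reads in WT and 1520.0, 1573 and 1443 in A20KO. The lowest A20KO library was just above the highest WT library. Scap rose by 0.20 on the log2 scale (limma, SE 0.0538, adjusted p = 0.0016), and the call ended without the variance trend (0.11). Of its exonic bases 13.2% lie under exons of 5830462I19Rik on the opposite strand.

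Insig1, the retention protein whose gene is itself an SREBP target, had 1197, 1162 and 1116 normalized reads in WT and 1296, 1273 and 1229 in A20KO. Its A20KO libraries were all above its WT libraries, but the log2 fold change of 0.13 was the nearest to the threshold from outside (95% confidence interval 0.02 to 0.24, limma adjusted p = 0.055). It passed under 8 alternatives, among them edgeR with TMM (adjusted p = 0.037) and quantile normalization (0.021). Insig2, the paralog with the same role, had 326, 358 and 315 in WT and 307, 329 and 311 in A20KO. The genotypes overlapped, with a log2 fold change of -0.08 (95% confidence interval -0.26 to 0.11, adjusted p = 0.58). Per length, Insig1 exceeded Insig2 by 4.12, 3.64 and 3.98 times in WT, and by 4.73, 4.35 and 4.44 times in A20KO. Mbtps1 and Mbtps2, the proteases, had log2 fold changes of 0.03 (95% confidence interval -0.06 to 0.12, limma adjusted p = 0.64) and -0.09 (-0.21 to 0.03, adjusted p = 0.26). Mbtps1 ranged over 2033 to 2124 normalized reads in WT against 2058 to 2184 in A20KO, and Mbtps2 had 989 to 1032 and 876 to 1015. Mbtps2 shares 31% of its words with other genes, mainly Yy2, which overlaps it, so its count is uncertain.

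The pair that handles finished cholesterol differed in direction. Soat1 encodes the acyltransferase that makes cholesteryl esters for lipid droplets, the form in which foam cells hold cholesterol. It had 3754, 3700.3 and 3702 normalized reads in WT and 4619, 4289.9 and 4589 in A20KO. All A20KO libraries were higher, and Soat1 rose by 0.27 on the log2 scale (limma, SE 0.0386, adjusted p = 1.5e-08). Stard4, a cytosolic sterol carrier and SREBP target, had 1692, 1696 and 1765 in WT and 1627, 1459 and 1567 in A20KO. It fell by 0.15 (limma, SE 0.0504, adjusted p = 0.014). That call ended after quantile normalization (0.058), with no variance trend (0.16), and when WT replicate 3 (0.056) or A20KO replicate 2 (0.16) was dropped.

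**Figure D3:**
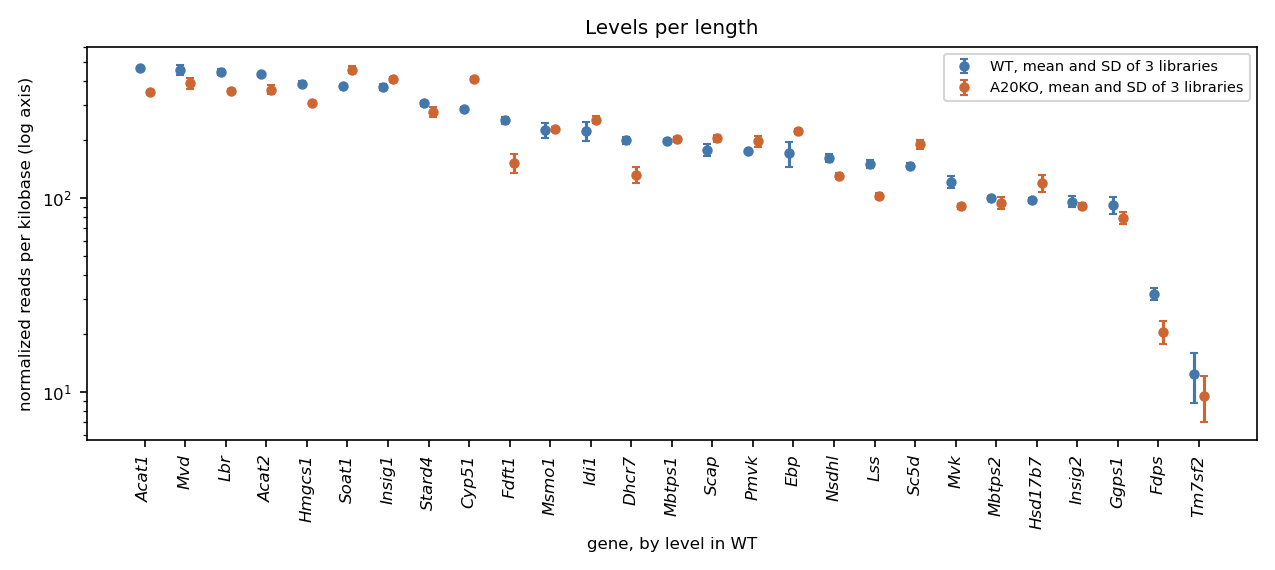
Points are means with SD over 3 libraries of normalized reads per kilobase of the deposited gene length (vertical log axis), for the 27 genes ordered by their WT level (horizontal axis). Levels run from 470.3 (Acat1) to 12.3 (Tm7sf2) in WT, and Soat1 (459.5), Cyp51 (410.3) and Insig1 (409) are the highest in A20KO.

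Per length, the order of levels differed between the genotypes at the top. In WT the highest member was Acat1, at 470.3 ± 4.29 normalized reads per kilobase, followed by Mvd at 457 ± 28.7, Lbr at 447 ± 15.8 and Acat2 at 434 ± 7.64. Neighbours among these 4 differed by less than the larger of their SDs. In A20KO the highest was Soat1 at 459.5 ± 18.6, followed by Cyp51 at 410.3 ± 10.7, Insig1 at 409 ± 10.9 and Mvd at 390.2 ± 26.9 (SD, n = 3). Cyp51 and Insig1 lay within each other's SD and within that of Mvd, but Mvd lay below theirs. Fdps and Tm7sf2 were lowest in both genotypes. The rank of Fdps may depend on how reads of shared sequence were assigned, which was not tested. In WT, Gm3571 stood at 289.8 ± 11.5 normalized reads per kilobase and Fdps at 32.1 ± 2.35. The deposited length is close to that of all exons of a gene together, except for Tm7sf2, where it is longer, so genes with long unused exons appear lower than their transcripts are.

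Other genes of the pathway, from lists in which the members were not included, also went both ways. Of 70 genes listed 64 were in the table and 62 were tested, of which 17 rose and 23 fell. The 40 past the threshold make up 64.5%, beside 39.8% of all genes tested and 56.0% of those at the levels of the members. Some listed genes, among them Plin2 and Lipa, lie outside the range of the members, so the last share is not matched to their levels. The counts of each list are to be read against the same shares, with that limit. Sqle, the epoxidase between Fdft1 and Lss, had 2384, 2617 and 2496 normalized reads in WT and 3484, 3214 and 3216 in A20KO. It rose by 0.40 (limma, SE 0.0436, adjusted p = 5.2e-12), opposite to the enzymes on either side of it. Sqle lies on chromosome 15, and of the 662 genes tested there 53.6% were higher and 7.10% lower, with a median log2 fold change of 0.38, and the part of this in its rise was not tested. No member lies on that chromosome. Erg28, a scaffold for the demethylation complex, was lower by a log2 value of -0.18 (adjusted p = 0.032), which ended under 6 alternatives, among them without A20KO replicate 2 (0.18).

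Among the SREBP factors and their handlers 2 of 10 rose, 3 fell and 5 did not pass. Srebf2, which encodes SREBP2, had 4993, 4941 and 5192 normalized reads in WT and 4583, 4979.5 and 4950.3 in A20KO. The genotypes overlapped, with a log2 fold change of -0.06 (limma, SE 0.0375, adjusted p = 0.21), and this gene too is on chromosome 15. Srebf1, which encodes the SREBP of fatty acid synthesis, fell by 0.18 (adjusted p = 6.0e-04, and 0.11 without the variance trend). Erlin2, a membrane protein that restrains the Scap complex, rose by 0.45, and Sec23a and Sar1b, coat proteins of the vesicles that leave the endoplasmic reticulum, fell by 0.44 and 0.19. Of 8 genes of sterol-driven degradation 4 rose and 1 fell. Rnf139, a ubiquitin ligase also on chromosome 15, rose by 0.57, Ubxn8 rose by 0.36, Vcp, the segregase that pulls proteins from the membrane, rose by 0.13, and Rnf145 fell by 0.30. The calls of Sar1b, Ubxn8 and Vcp ended without the variance trend (adjusted p = 0.051, 0.052 and 0.2).

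Genes of uptake and transfer included larger changes than any member. Of 12 tested 3 rose and 5 fell. Mylip, a ubiquitin ligase induced by sterols through LXR, had 130.1, 141 and 121 normalized reads in WT and 228, 281 and 267 in A20KO. All A20KO libraries were higher, a rise of 0.98 on the log2 scale (limma, SE 0.125, adjusted p = 9.4e-10). Stard5, a sterol carrier, fell by 1.20 (adjusted p = 3.0e-22), and Tmem97, a sterol-regulated membrane protein, rose by 0.50 (adjusted p = 1.9e-13).

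Of the 4 genes of ester storage and hydrolysis 2 fell and 1 rose. Plin2, the coat protein of lipid droplets, fell from 18833 ± 337 to 11775 ± 146 normalized reads (SD, n = 3; log2 fold change -0.68, SE 0.0279, limma adjusted p = 1.1e-30), while Soat1 was higher. Nceh1, which cleaves cholesteryl esters, rose by 0.19, and Soat2, the minor acyltransferase here with 123 ± 3.39 normalized reads in WT and also on chromosome 15, fell by 0.58. Lipa, the lysosomal esterase, had 7189 ± 349 and 7286 ± 181 and did not pass (adjusted p = 0.7).

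The 6 genes of LXR signalling and efflux, the route that unloads cholesterol, all passed, 3 in each direction. Apoe, the lipoprotein carrier, rose from 343 ± 46.3 to 1693 ± 34.2 normalized reads (SD, n = 3), by 2.31 on the log2 scale. Abca1, a cholesterol efflux transporter, rose from 219 ± 27 to 527 ± 87.6. Abcg1, another efflux transporter, fell by 0.60, and Lpcat3, which remodels membrane phospholipids and is an LXR target, fell by 0.61.

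Of 13 genes of non-sterol isoprenoids 3 rose and 5 fell. Zmpste24, the protease of prelamin A, rose by 0.29, and Fntb, a subunit of farnesyltransferase, rose by 0.39. Nus1, of dolichol synthesis, fell by 0.27, and Rabggta, a subunit of the Rab prenyltransferase, fell by 0.23. The call of Rabggta ended without WT replicate 2 (adjusted p = 0.053), without A20KO replicate 3 (0.095) and without the variance trend (0.13). Of 5 tested genes of acetyl-CoA supply only Acss2, which makes acetyl-CoA from acetate, passed, as it fell by 0.90 (adjusted p = 2.3e-05). Acly, the main cytosolic source, had 7454 ± 185 and 7065 ± 275 normalized reads and did not pass (adjusted p = 0.063), though it passed without WT replicate 1 (0.033) or A20KO replicate 2 (0.041) and with limma-voom (0.042). The 1 oxysterol gene tested, Cyp27a1, differed by -0.31 on the log2 scale (adjusted p = 0.042), which ended under 9 alternatives, among them the fit with a replicate block (0.053) and DESeq2 (0.12).

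**Figure D4:**
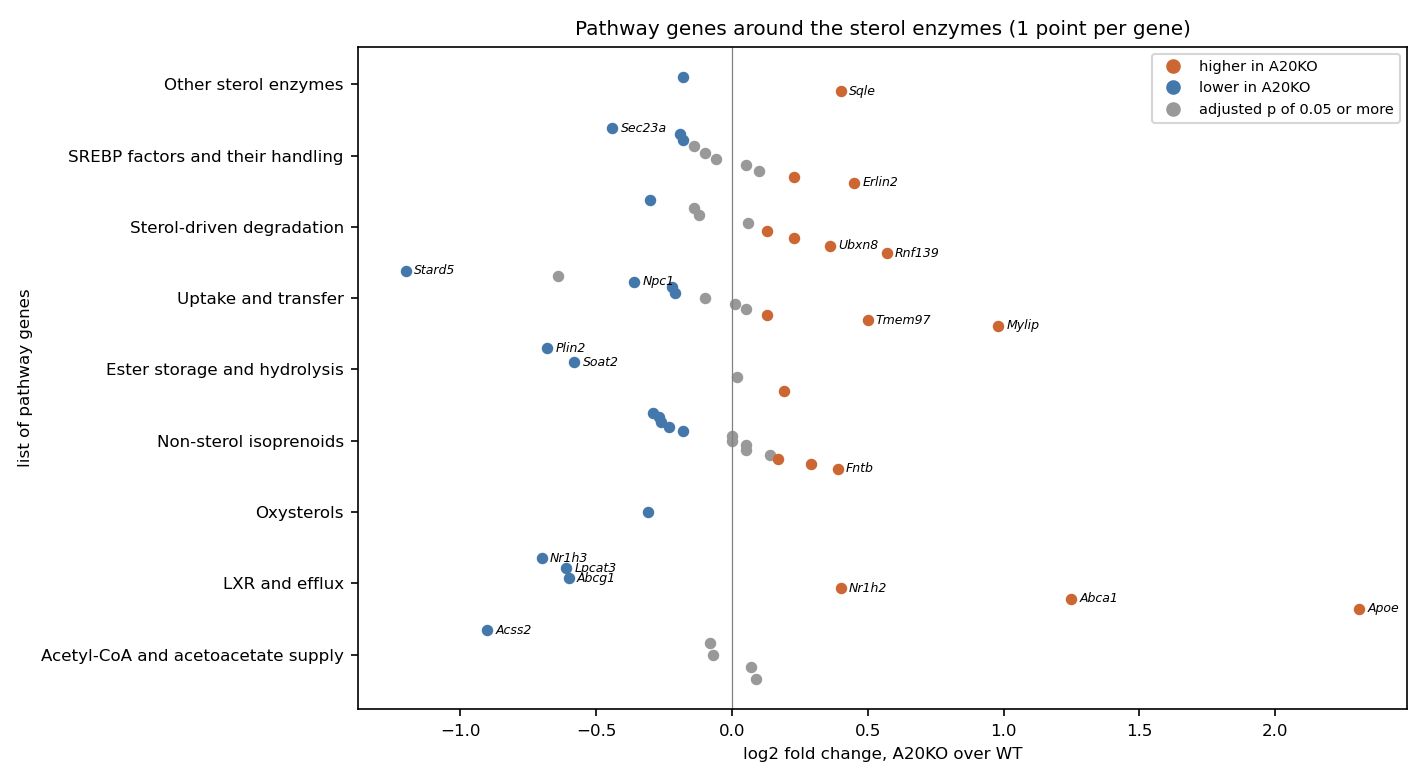
Each point is 1 tested gene outside the 27 members (2 of the 62 are not drawn), by its log2 fold change, A20KO over WT (horizontal axis), in the list it belongs to (vertical axis), coloured by whether it passed an adjusted p of 0.05. Names are given for genes past the threshold that differ by at least 0.35; Apoe lies farthest to the right at 2.31 and Stard5 farthest to the left at -1.20.

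By the authors' deposited table, members that were higher numbered 6 and lower 12 past an adjusted p of 0.05. The call was as here for 25 of the 27 members. The others were Idi1 (adjusted p = 0.087 in the authors' deposited table) and Ggps1 (0.12 in the authors' deposited table). Of the 20 members past the threshold 13 passed under each of the 20 alternatives run: Acat1, Acat2, Hmgcs1, Mvk, Fdps, Fdft1, Lss, Cyp51, Lbr, Nsdhl, Sc5d, Dhcr7 and Soat1. No alternative changed how reads of shared or overlapping sequence were assigned, so the uncertainty given above for Acat2, Fdps and Fdft1 remains. The same holds for the opposite-strand overlaps given above for Hmgcs1 and Lbr. Of the 7 that rose only Cyp51, Sc5d and Soat1 passed without the variance trend, where 10 of the 13 that fell passed.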

How the data were processed

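RNA was sequenced from 3 WT and 3 A20KO samples of iBMDM cells, with a SMARTer mRNA kit per the labels' protocols. Per the submitters' processing notes the genome was mm10. Not given in the sources used here: aligner, counter, strand and annotation. The authors deposited a normalized signal per gene and library. In each library 100% of values were whole multiples of 1 read (tolerance 0.001 reads), so whole reads were recovered. The deposited table also holds group means, a log2 fold change, a p-value and an adjusted p-value, and gene length, per the file headers.

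Because the values were normalized, the branch of the design for such values was used: log2(value + 1), genes with a mean of at least 1 (17376), limma 3.58.1 (R 4.3.3) with a variance trend and robust moderation, Benjamini-Hochberg adjustment over all genes, threshold 0.05. Alternatives were other filters, pseudocounts, scalings and variance models, edgeR 4.0.16, DESeq2 1.42.0 and limma-voom on the recovered reads, a replicate block, and leaving out each library. The number of genes past threshold, A20KO versus WT, was 6603 by edgeR with TMM on those reads and 6917 by limma. The procedure was also run on simulated counts, but the outcome is not given here, so this lends no support to single calls. Replicates differed by more than sampling noise (chi-square per degree of freedom 2.67 to 3.60 counting genes that had 10 or more reads over both libraries).

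Shared 31-base words and exon overlaps came from GENCODE M21, and promoters from RefSeq. Every member is named; genes of the pathway lists are named when past the threshold, at most 4 per list by smallest adjusted p, besides a few below it as examples. Members and lists were chosen with earlier results of these data known. Of the listed pathway genes 6 were not analysed here, and some results on others are not reported here.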

Additional observations from a re-analysis of the deposited data

How the results depend on the processing

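Under the 20 alternatives no value of a member or of a listed pathway gene changed sign where it was called. Members higher in A20KO numbered 7, and 3 without the variance trend, which also took the pathway genes past the threshold outside the members from 40 to 26. Leaving out 1 library at a time gave 6 to 8 members higher, 11 to 13 lower and 36 to 40 pathway genes outside the members. The fit with the replicate number as a block gave 7 members higher and 12 lower, ending the calls of Ggps1 and, among the other pathway genes, Cyp27a1. The values gave no sign that replicate numbers pair the samples, as deviations of same-numbered libraries correlated by -0.011 to 0.002. Single members lost a call 24 times and gained one 8 times (Insig1 each time) over all alternatives. TMM factors from genes outside chromosome 15 gave 8 members higher and 12 lower. With the sterol regulatory element searched without its first letter, 6.24% of all promoters and those of Acat2, Hmgcs1 and Insig1 held it, and 1.05% held the full spelling before the start alone. At this depth the low counts of Tm7sf2 limit what could be detected.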
